A study of Mus musculus with 24 samples.

Results

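Glutamate and GABA carry most of the fast excitatory and inhibitory signalling of the brain, and the genes described here code for subunits of their receptors. The 41 genes were taken by name from the 54532 genes of the expression table: 4 AMPA, 7 NMDA, 5 kainate, 1 delta and 7 metabotropic glutamate receptor genes, and 12 GABA-A, 3 GABA-A rho and 2 GABA-B receptor genes. Subunit genes outside this list were not analysed here. Bulk RNA sequencing had been performed on brain hemispheres of 24 young adult male wild-type C57Bl6 mice, in 4 groups of 6 mice. All mice carried a subcutaneous osmotic minipump for 2 weeks, filled either with saline, the vehicle, or with angiotensin II to deliver 0.7 mg/kg/d, an infusion used as a model of hypertension. Each pump was combined with a tail vein injection of saline or of human amnion epithelial cells (AEC) from term placentae, which gave the groups vehicle, angiotensin II, vehicle + AEC and angiotensin II + AEC. The injected cells are human and the mice wild-type, and a hemisphere pools all brain regions.

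AMPA, NMDA, kainate and GABA-A receptors are ion channels that open when the transmitter binds, and each is assembled from several subunits whose mix sets its speed and permeability. Metabotropic glutamate receptors and GABA-B receptors act through G proteins and often sit on the nerve terminal, where they limit transmitter release. Many subunits are enriched in particular regions, such as Gabra6 in granule cells of the cerebellum.

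The fragments assigned to genes, recovered from the FPKM values, came to 16536449 to 25308700 per mouse. Levels are in FPKM, which scales a gene's fragments to its length and to the size of the library and so allows genes to be compared. A set of 6 libraries stood apart, with FPKM totals of 338334.5 to 348596.7 and 6.167% to 6.845% of the fragments on mitochondrial genes. The other 18 had totals of 277115.9 to 298300.6 and 4.79% to 5.749%. The set holds vehicle replicates 5 and 6, angiotensin II replicate 5, vehicle + AEC replicate 6, and angiotensin II + AEC replicates 5 and 6, so each group has 1 or 2 of them. What sets these libraries apart is not stated in the sources used here. All 6 neuronal markers (among them Snap25, Syt1 and Rbfox3) were above 0, with a summed level of 626.5 to 689.8 FPKM in the 18 libraries and 601.9 to 655.9 FPKM in the 6. The sums hide opposite shifts, as 2 of these genes were lower without overlap in the 6 libraries and 2 higher. Of all genes with a mean of at least 1 FPKM, 28.9% were lower and 22.1% higher in this way. Pituitary markers summed to 1566 FPKM in angiotensin II replicate 4 and to 34.0 FPKM or less elsewhere. Nothing in the labels ties replicates to litters or days, and p-values measure the spread between these mice.

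Levels spanned a wide range (the plot of levels by mouse). Of the 41 genes, 16 had a mean of at least 10 FPKM, 19 a mean of 1 to 10 FPKM, and 6 a mean under 1 FPKM. The highest was Gabbr1, with 107.6 ± 6.46 FPKM (SD, n = 24), followed with the gene lengths of the table by Gria1, Grik5, Grin1, Gabbr2 and Gabrd.

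**Figure D1:**
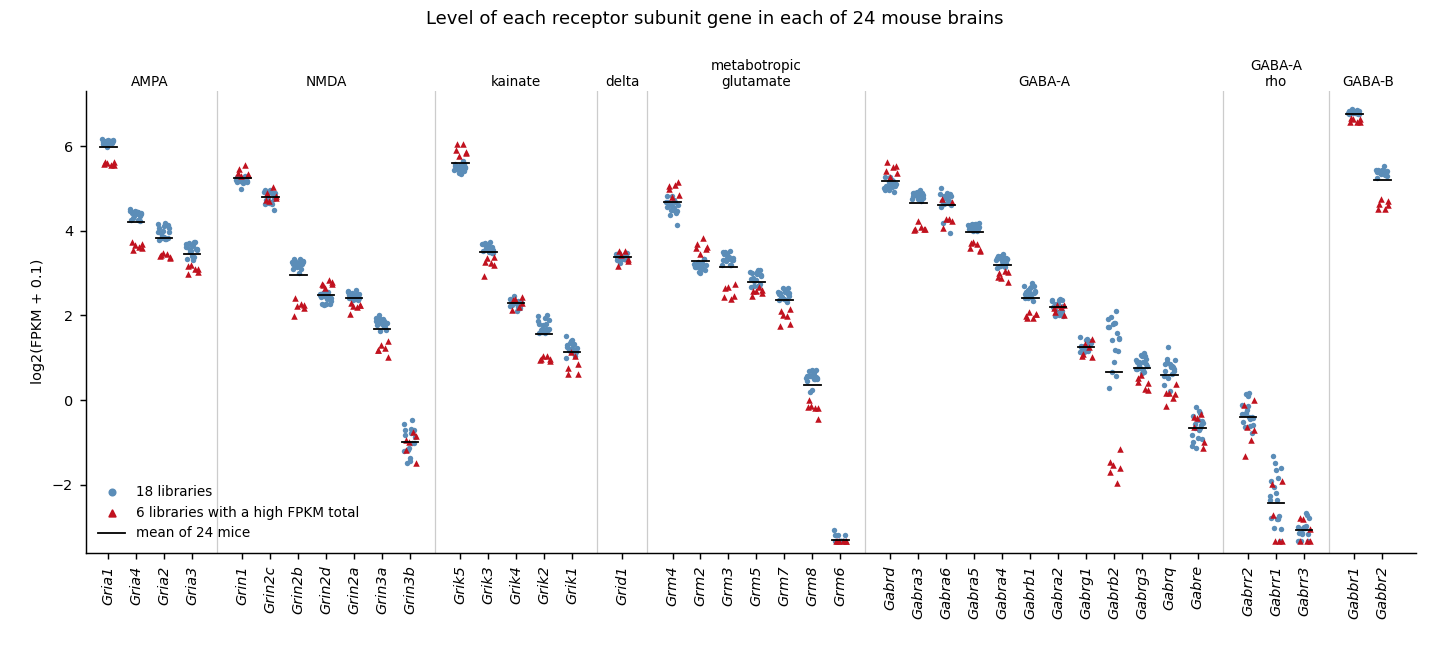
Level of each gene in each of 24 mice as log2(FPKM + 0.1), by receptor group and ordered by mean within it; circles are the 18 libraries, triangles the 6 with a high FPKM total, and bars the mean of 24 mice. The triangles lie below the circles in all 4 AMPA genes and far below them in Gabrb2, and above them in Grik5, Grm2 and Grin2d.

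AMPA receptors carry most fast excitatory current. Gria1, on chromosome 11 (57011387 to 57330244, GRCm38, plus strand), was the highest member at 63.4 ± 9.34 FPKM (SD, n = 24) and made up 59.0% of the summed FPKM of the AMPA group. Gria4 followed with 18.8 ± 3.90 FPKM, then Gria2, whose edited form keeps the channel closed to calcium, with 14.4 ± 2.63 FPKM, and Gria3 with 10.9 ± 1.74 FPKM. Each of these genes exceeded the next one in 24 of 24 mice. The steps below Gria1 rest on the gene lengths of the table: with the length of the longest coding transcript, Gria4, Gria2 and Gria3 came to 21.7, 21.6 and 20.7 FPKM.

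NMDA receptors need Grin1, which binds the co-agonist glycine, and combine it with a glutamate-binding Grin2 subunit. Grin1 (chromosome 2, 25291181 to 25319187, minus strand) had 37.8 ± 3.10 FPKM, 43.0% of its group. Of the Grin2 genes, Grin2c, known from cerebellar granule cells, was highest with 27.8 ± 2.57 FPKM, above Grin2b in 24 of 24 mice. Grin2b, prominent early in development, had 8.02 ± 2.11 FPKM. Grin2d had 5.55 ± 0.711 FPKM and Grin2a, which gives fast channels, 5.20 ± 0.485 FPKM; their order depended on the library set, with Grin2d the higher in 6 of the 6 libraries and in 7 of the 18. Grin2b exceeded Grin2d in each of the 18 and in 0 of the 6. Grin3a and Grin3b, glycine-binding subunits that lower calcium entry, had 3.15 ± 0.584 and 0.416 ± 0.101 FPKM. Grin3b rested on 15 to 35 reads per mouse.

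Kainate receptors are built from Grik1, Grik2 and Grik3, which form channels alone, and Grik4 and Grik5, which need one of the former. Grik5 (chromosome 7, 25009849 to 25072346, minus strand) had 48.7 ± 7.42 FPKM, 69.6% of its group. Grik3 had 11.4 ± 1.44, Grik4 4.81 ± 0.296, Grik2 2.92 ± 0.676 and Grik1 2.13 ± 0.342 FPKM. Grik2 and Grik1 were close, with Grik2 the higher in 22 of 24 mice. The delta receptor gene Grid1, whose product organises synapses, had 10.3 ± 0.606 FPKM.

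Among metabotropic glutamate receptors, Grm4 (chromosome 17, 27422387 to 27521403, minus strand), a presynaptic receptor of cerebellar parallel fibres, was highest at 25.8 ± 4.41 FPKM. Grm2 and Grm3, which lower cyclic AMP, had 9.76 ± 1.64 and 9.04 ± 2.02 FPKM, and their order depended on the library set. Grm3 was the higher in the 18 libraries, with means of 10.1 against 8.93 FPKM, and Grm2 in the 6, with 12.3 against 5.82 FPKM. Grm5, which raises intracellular calcium, had 6.91 ± 0.893 FPKM. The presynaptic receptors Grm7 and Grm8 had 5.11 ± 0.851 and 1.21 ± 0.282 FPKM. Grm6, the receptor of retinal bipolar cells, had a mean of 0.00205 FPKM. It had reads in 4 of 24 mice and at most 2 of them, under the floor of 3 reads, so it was not detectable at this depth.

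GABA-A receptors are chloride channels of alpha, beta and a further subunit. Gabrd (chromosome 4, 155384980 to 155398112, minus strand), the delta subunit of receptors outside the synapse, was highest at 36.3 ± 5.14 FPKM. Of the alpha subunits, Gabra3 had 25.7 ± 5.37 and Gabra6 24.8 ± 4.57 FPKM, and their order depended on the library set, with Gabra3 the higher in 13 of the 18 libraries (means of 28.6 and 26.1 FPKM) and in 0 of the 6 (16.8 and 21.0 FPKM). Gabra5, a subunit of hippocampal extrasynaptic receptors, had 15.8 ± 2.18 FPKM, Gabra4 9.17 ± 1.13 FPKM and Gabra2 4.48 ± 0.407 FPKM. The beta subunit genes Gabrb1 and Gabrb2 had 5.32 ± 0.930 and 2.10 ± 1.34 FPKM. The gamma subunit genes Gabrg1 and Gabrg3 had 2.31 ± 0.213 and 1.61 ± 0.277 FPKM, and the place of Gabrb2 depended on the library set. It was below both in each of the 6 libraries, and in the 18 it was above Gabrg3 in 15 and below Gabrg1 in 6. The theta subunit gene Gabrq had 1.44 ± 0.357 FPKM and the epsilon subunit gene Gabre 0.549 ± 0.126 FPKM. The rho subunits form channels best known in the retina, and Gabrr2 had 0.681 ± 0.183 FPKM. Gabrr1 had 0.104 ± 0.0886 FPKM and Gabrr3 0.0204 ± 0.0182 FPKM. Gabrr1 had reads in 20 and Gabrr3 in 17 of 24 mice, with at most 16 and 5 reads. The median of Gabrr3, 2 reads, was under the floor of 3 reads.

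GABA-B receptors are obligate pairs of Gabbr1, which binds GABA, and Gabbr2, which couples to the G protein. Gabbr1 (chromosome 17, 37045966 to 37075067, plus strand) exceeded Gabbr2, at 37.4 ± 7.73 FPKM, in 24 of 24 mice. The gene lengths of the table are greater than those of the longest coding transcript for most members, 9700 against 4276 for Grin1. With the lengths of the latter, a setting chosen after seeing the data, Grin1 came to 85.8, Grik5 to 66.8, Gabrd to 54.3, Grm4 to 33.4 and Gabbr1 to 159.1 FPKM. The order within receptor groups then changed for 2 genes, Gabra2 and Gabrb1, and the highest gene of each group stayed the same. Across groups Grin1 passed Gria1 (69.1 FPKM) and Grik5, and Gabrd passed Gabbr2 (43.5 FPKM).

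Several of the higher members are known from cerebellar granule cells, so Gabra6, Grin2c, Grm4 and Gabrd were compared with a cerebellar marker score, the mean log2(FPKM + 0.1) of 7 cerebellar genes (Cbln3, Fat2, Neurod1, Pcp2, Zic1, Car8 and En2). The score overlapped between the groups, with 3.87 to 4.40 in vehicle, 3.85 to 4.29 in angiotensin II, 4.04 to 4.35 in vehicle + AEC and 3.58 to 4.29 in angiotensin II + AEC mice. In a bulk sample, fewer cells of a type and less RNA per cell cannot be told apart. The promoters of Gabra6 and Grin2c are shown because these genes followed the score most closely; each window runs from 250 bases before to 50 after the start of the gene, 5′ to 3′ on the minus strand (RefSeq, GRCm38.p6). Capitals mark TTGGC or its complement GCCAA, the short site of nuclear factor I, a factor known from granule cell genes.
Gabra6, chr11:42321023-42321322: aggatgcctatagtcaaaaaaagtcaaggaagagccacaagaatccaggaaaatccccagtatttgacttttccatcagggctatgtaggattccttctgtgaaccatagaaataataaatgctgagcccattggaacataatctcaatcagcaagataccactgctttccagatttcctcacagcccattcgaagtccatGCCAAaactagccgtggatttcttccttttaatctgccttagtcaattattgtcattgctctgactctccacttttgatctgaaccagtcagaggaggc
Grin2c, chr11:115267194-115267493: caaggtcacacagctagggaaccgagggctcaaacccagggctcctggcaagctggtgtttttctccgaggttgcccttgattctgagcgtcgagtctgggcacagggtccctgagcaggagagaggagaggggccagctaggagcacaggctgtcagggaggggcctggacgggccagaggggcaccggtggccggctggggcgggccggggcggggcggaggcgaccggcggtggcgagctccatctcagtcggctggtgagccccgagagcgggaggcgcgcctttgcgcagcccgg
The Gabra6 window held 1 match, GCCAA, and the Grin2c window none. On either strand these letters occur in 46.7% of the 32851 promoter windows of the same length, so the match describes the sequence and shows no binding. The GC content was 42% for Gabra6 and 70% for Grin2c.

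Gabra6 rose with the score. In the 18 libraries, Pearson's r was 0.94 (permutation p = 1e-05, the smallest that 100000 resamples can give, adjusted p = 6e-05 over 12 relations) and Spearman's rho 0.85 (p = 3e-05, adjusted p = 0.00018). Without the 2 mice farthest from the median score, r was 0.76. In the 6 libraries r was 0.90 (exact permutation p = 0.0125, adjusted p = 0.025) and rho 0.66 (exact permutation p = 0.175, adjusted p = 0.30), and r fell to 0.40 without the 2 farthest. Angiotensin II + AEC replicate 2 had both the lowest score, 3.58, and the lowest Gabra6, 15.4 FPKM, and vehicle replicate 2 the highest Gabra6, 32.1 FPKM, at a score of 4.39. Over all 24 mice r was 0.92 (permutation p = 1e-05, adjusted p = 6e-05), rho 0.88 and r 0.89 without the 2 farthest.

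Grin2c followed the score in the 18 libraries, with r = 0.77 (permutation p = 0.0002, adjusted p = 0.0008), rho = 0.69 (p = 0.00204, adjusted p = 0.00816) and r = 0.65 without the 2 farthest mice, whereas in the 6 libraries r was -0.04 (exact permutation p = 0.944) and 0.82 without the 2 farthest, so that no reading can be made there. For Grm4, r was 0.73 in the 18 (permutation p = 0.00141, adjusted p = 0.00423) and 0.30 without the 2 farthest mice, so this relation rested on them. For Gabrd, r was 0.52 (permutation p = 0.0272, adjusted p = 0.0466) and 0.35 without them, and it rested on them as well. The rank correlations of Grm4 (rho = 0.50, adjusted p = 0.0893) and Gabrd (rho = 0.43, adjusted p = 0.154) did not pass the adjustment. In the 6 libraries, r was 0.53 for Grm4 and 0.16 for Gabrd, with exact permutation p-values of 0.279 and 0.778. The pooled values over 24 mice were lower, 0.55 for Grin2c (permutation p = 0.00546, adjusted p = 0.0131, rho = 0.50, r = 0.31 without the 2 farthest mice), 0.21 for Grm4 (permutation p = 0.334) and -0.04 for Gabrd (permutation p = 0.869). Among the 36 other members tested, the correlation in the 18 ranged from -0.52 for Grid1 to 0.71 for Gria4, with a median of 0.03.

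**Figure D2:**
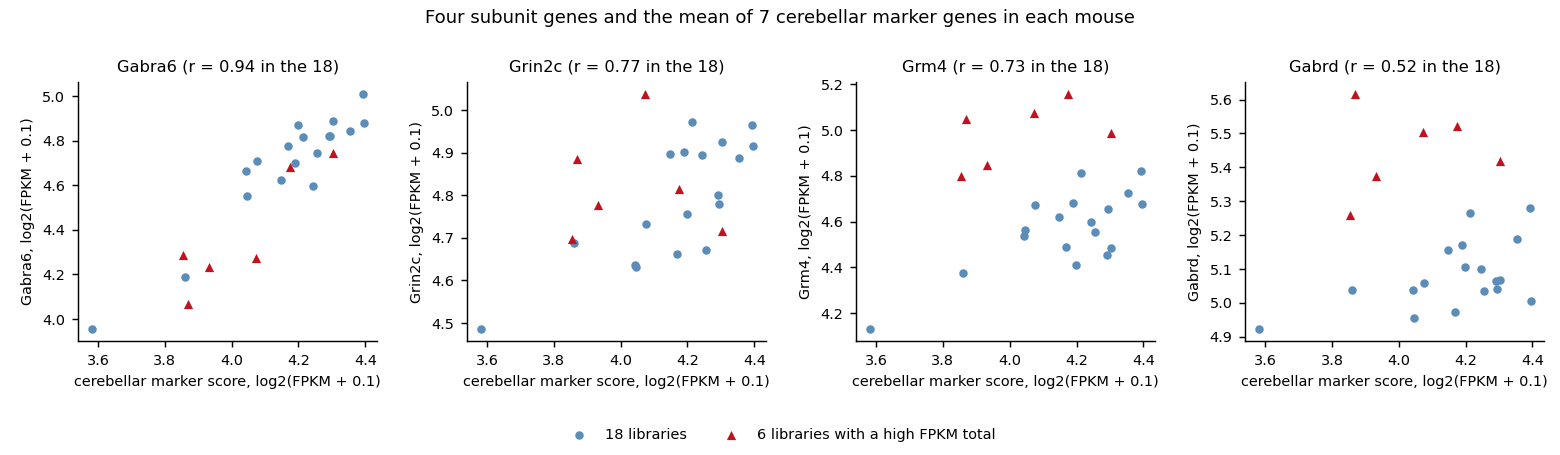
Level of Gabra6, Grin2c, Grm4 and Gabrd against the cerebellar marker score in each of 24 mice, both as log2(FPKM + 0.1); circles are the 18 libraries and triangles the 6 with a high FPKM total. Gabra6 rises with the score in both sets, whereas Grm4 and Gabrd are higher in the triangles than in circles of a like score.

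The first comparison asked whether angiotensin II changed receptor expression. Of the 40 members that passed the filter (Grm6 did not), 0 differed between angiotensin II and vehicle at an adjusted p under 0.05 (limma, Benjamini-Hochberg), as did 0 of 27286 genes tested (0%). At an unadjusted p under 0.05, 0 of 40 members stood against 604 genes (2.21%). The lowest p among the members was that of Grin3b, with a log2 fold change of -0.32 ± 0.17 (SE, unadjusted p = 0.0773, adjusted p = 0.994). The sign was positive for 30 of 40 members (75%), against 55.4% of all genes, and the median log2 fold change was 0.07, against 0.02. Vehicle holds 2 and angiotensin II 1 of the 6 libraries that stand apart. With the library set as a term in the fit, 17 of 40 were positive, the median was -0.01, and 0 members against 3.46% of genes had an unadjusted p under 0.05.

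AEC given with angiotensin II, compared with angiotensin II alone, gave 0 of 40 members at an adjusted p under 0.05 (0% of genes) and 0 at an unadjusted p under 0.05, against 694 genes (2.54%). Here 10 of 40 members were positive, against 45.3% of all genes, and 21 with the library set as a term. That fit placed 1 member, Grik1, at an unadjusted p under 0.05, against 1063 genes (3.9%). In the 18 libraries alone, 5 against 4 mice, 4 of 40 (Grin3b, Grm4, Gabrg1 and Gabrr1) had an unadjusted p under 0.05, against 4.61% of genes, and 0 an adjusted p under 0.05. In vehicle-infused mice, AEC gave 0 of 40 members at either threshold, against 0% and 2.41% of genes (3.54% with the library set as a term). There 31 of 40 members were positive, against 52.4% of all genes, or 24 with the term. Angiotensin II + AEC against vehicle + AEC gave 0 of 40 at either threshold, against 0% and 2.66% of genes (4.01% with the term). In this comparison 7 of 40 members were positive, against 47.2% of all genes, or 17 with the term. The interaction, which asks whether the effect of angiotensin II differed with AEC, also gave 0 of 40 at either threshold, against 0% and 2.54% of genes. With the term, Grik1 alone of 40 had an unadjusted p under 0.05, against 931 genes (3.41%). The sets of compared mice share groups, so their values are not independent. limma voom on the recovered reads also gave 0 members at an adjusted p under 0.05 in each of the 5 comparisons, and at an unadjusted p 0 in the pairs of groups and 1, Grik1, in the interaction.

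The intervals say how large a change could have been missed. In each of the 4 pairs of groups, the 95% confidence interval lay within 1 on the log2 scale (2-fold) for 34 of the 35 members with a mean of at least 1 FPKM, the exception being Gabrb2. With the library set as a term, all 35 lay within 2-fold and 34 within 0.5 on the log2 scale (1.41-fold), again without Gabrb2. The median SE was 0.139 without and 0.0693 with the term.

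**Figure D3:**
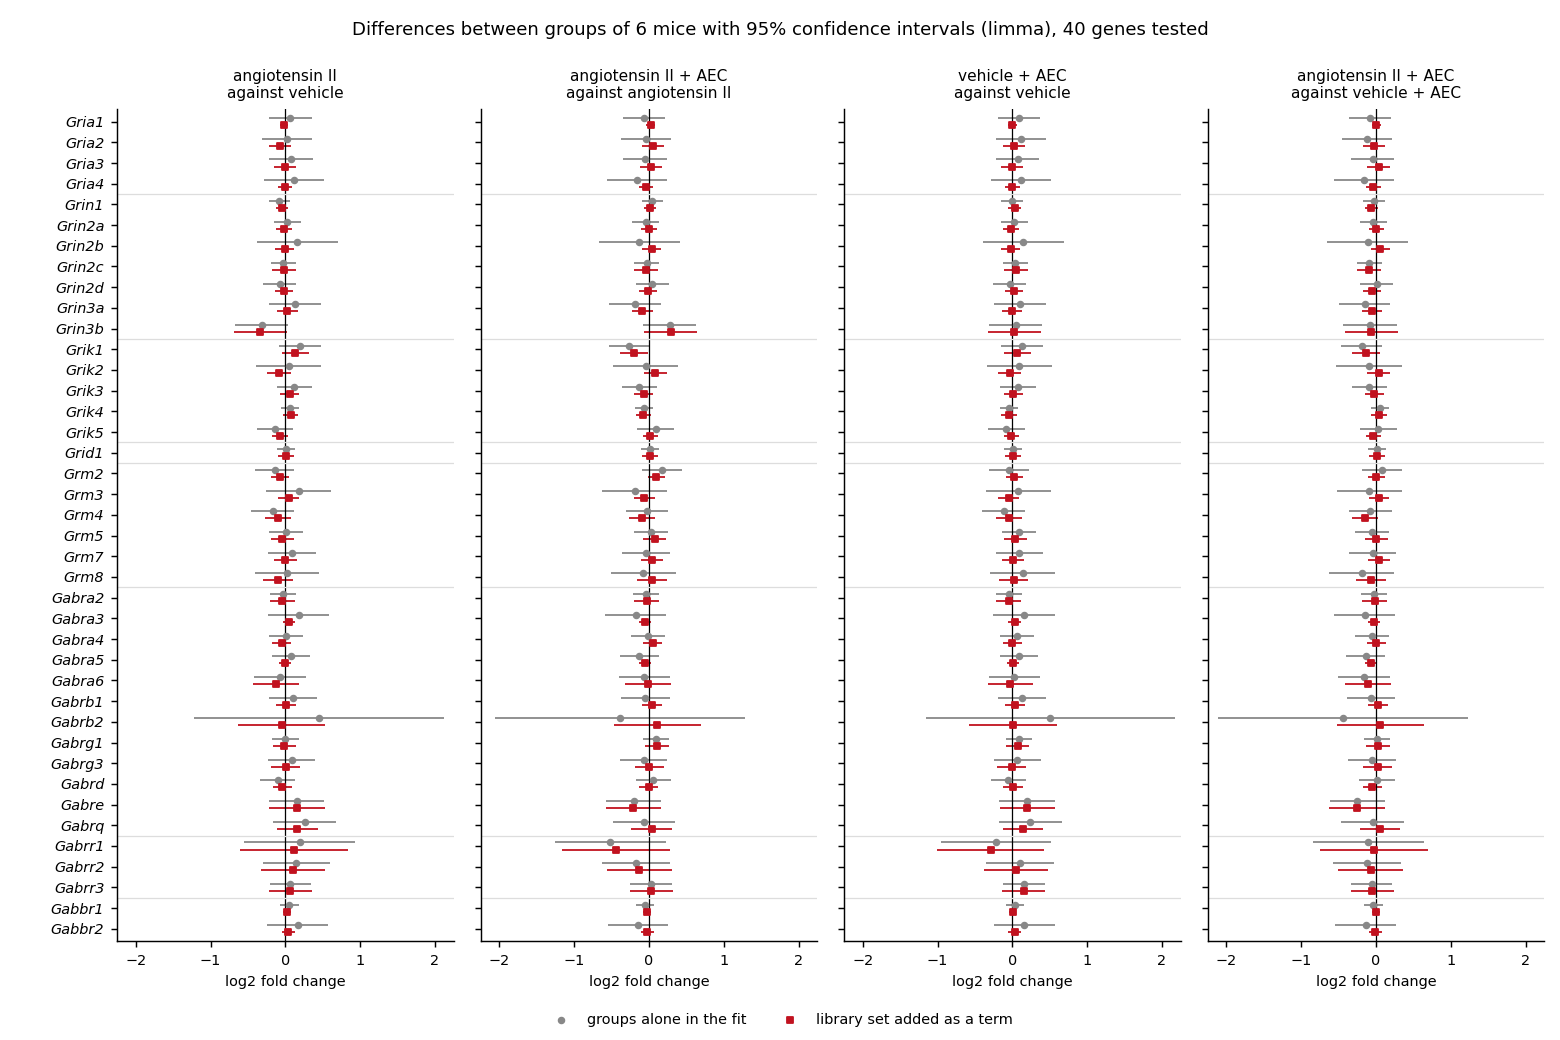
Log2 fold change of 40 genes between pairs of groups of 6 mice, with 95% confidence intervals from limma on log2(FPKM + 0.1); circles are the fit of the groups alone and squares the fit with the library set as a term. Intervals narrow with the term for all 40 genes but Gabrr3, and the widest in either fit are those of Gabrb2 and Gabrr1.

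The highest member of each receptor group showed the same picture. Each had lowest, median and highest values that overlapped between all groups, and the adjusted limma p was 0.930 or higher in each of the 5 comparisons. Two-sided exact permutation tests of 6 against 6 mice, 28 in all, had a lowest adjusted p of 0.909. Gria1 had 47.2, 67.1 and 71.6 FPKM (lowest, median, highest) in vehicle, 48.5, 67.8 and 69.9 in angiotensin II, 46.6, 68.8 and 71.0 in vehicle + AEC, and 46.5, 67.9 and 71.1 in angiotensin II + AEC mice. The medians lay within 2 FPKM of each other, and each lowest value was one of the 6 libraries. Its log2 fold change was 0.07 ± 0.14 (SE) for angiotensin II and -0.06 ± 0.14 for AEC added to it, with exact p of 0.623 to 0.794 over the 4 pairs of groups. With the library set as a term, the first of these was -0.02 ± 0.03 and the second 0.02 ± 0.03.

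Grin1 ranged from 35.7 to 43.7 FPKM (median 37.3) in vehicle, 31.7 to 39.1 (37.1) in angiotensin II, 34.8 to 46.8 (37.1) in vehicle + AEC, and 35.2 to 40.7 (37.1) in angiotensin II + AEC mice. Its log2 fold changes were -0.08 ± 0.07 (SE) for angiotensin II and 0.05 ± 0.07 for AEC added to it, with exact p of 0.266 to 0.972. Reads of Grin1 and of an overlapping gene that is not protein-coding cannot be told apart without strand, which is not stated for the counting. In all, 9 of the 41 members overlap in the annotation with a gene that has a mean of at least 1 FPKM. These are Grin1, Grin2c, Grin2d, Grin3b, Grm4, Grm7, Gabra4, Gabra5 and Gabrb1, and their levels carry a like uncertainty. Grik5 ranged from 43.0 to 65.9 FPKM (median 47.1) in vehicle, 41.3 to 53.9 (45.2) in angiotensin II, 40.4 to 66.0 (45.3) in vehicle + AEC, and 42.6 to 58.3 (46.2) in angiotensin II + AEC mice. In each group the highest Grik5 was a library of the 6. Its log2 fold changes were -0.14 ± 0.12 and 0.09 ± 0.12, with exact p of 0.253 to 0.823.

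Grm4 ranged from 23.5 to 33.0 FPKM (median 26.8) in vehicle, 20.6 to 28.0 (24.8) in angiotensin II, 22.3 to 33.6 (24.5) in vehicle + AEC, and 17.4 to 35.6 (23.0) in angiotensin II + AEC mice. The last group was the most spread, and its lowest mouse was the one with the lowest cerebellar score. The log2 fold changes were -0.17 ± 0.14 and -0.03 ± 0.14, with exact p of 0.143 to 0.890. Gabrd ranged from 31.0 to 49.0 FPKM (median 36.0) in vehicle, 31.3 to 38.4 (34.2) in angiotensin II, 32.7 to 45.3 (34.7) in vehicle + AEC, and 30.2 to 45.9 (34.2) in angiotensin II + AEC mice. Its log2 fold changes were -0.10 ± 0.11 and 0.06 ± 0.11, with exact p of 0.418 to 0.935. All 4 medians of Gabrd differed by less than the range within any group.

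Gabbr1, the highest of all members, ranged from 94.8 to 112.7 FPKM (median 108.7) in vehicle, 99.3 to 116.6 (110.4) in angiotensin II, 94.6 to 115.2 (110.3) in vehicle + AEC, and 95.4 to 113.1 (107.8) in angiotensin II + AEC mice. Its log2 fold changes were 0.05 ± 0.06 and -0.05 ± 0.06, with exact p of 0.303 to 0.561, and the 95% interval for angiotensin II ran from -0.08 to 0.18. Gabrr2, on 16 to 40 reads per mouse, ranged from 0.298 to 0.829 FPKM in vehicle, 0.540 to 0.9995 in angiotensin II, 0.421 to 1.02 in vehicle + AEC, and 0.487 to 0.904 in angiotensin II + AEC mice. Its log2 fold changes were 0.15 ± 0.22 and -0.17 ± 0.22, with exact p of 0.320 to 0.708.

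Grik1 was chosen after its values were seen, as the member nearest the threshold in 3 of the 5 comparisons. It had 1.44, 2.08 and 2.78 FPKM (lowest, median, highest) in vehicle, 2.08, 2.296 and 2.58 in angiotensin II, 1.95, 2.19 and 2.41 in vehicle + AEC, and 1.42, 2.01 and 2.25 in angiotensin II + AEC mice. The ranges overlapped in every pair of groups. AEC added to angiotensin II gave a log2 fold change of -0.26 ± 0.13 (SE, unadjusted limma p = 0.0616, adjusted p = 1.0, exact permutation p = 0.0346), and the interaction was -0.39 ± 0.19 (unadjusted p = 0.0506, adjusted p = 0.931). With the library set as a term these were -0.20 ± 0.09 (unadjusted p = 0.0348, adjusted p = 1.0) and -0.26 ± 0.13 (unadjusted p = 0.0486, adjusted p = 1.0). None of them passed the adjustment over all genes. Over 33 alternative fits, the interaction of Grik1 had an unadjusted p under 0.05 in 16, with log2 values of -0.48 to -0.26 in these, and the lowest of those p, 0.0128, came without vehicle replicate 1, the mouse with the highest Grik1.

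The summed FPKM per mouse of each receptor group is given as a description, with no test. The AMPA sum was 104.8 ± 20.2 FPKM (SD, n = 6) in vehicle, 109.2 ± 13.8 in angiotensin II, 111.3 ± 16.8 in vehicle + AEC and 104.5 ± 20.4 in angiotensin II + AEC mice. The NMDA sum was 88.6 ± 4.42, 86.7 ± 4.26, 90.1 ± 5.13 and 86.5 ± 2.24 FPKM in the same order, and the kainate sum 72.0 ± 6.53, 68.1 ± 3.13, 69.7 ± 7.55 and 69.6 ± 4.97 FPKM. The metabotropic glutamate sum was 59.5 ± 2.61, 56.6 ± 1.53, 58.3 ± 2.99 and 56.8 ± 4.05 FPKM. The GABA-A sum was 129.7 ± 12.1, 129.7 ± 9.38, 133.1 ± 9.32 and 126.0 ± 12.2 FPKM, and the GABA-B sum 141.6 ± 15.6, 148.8 ± 11.5, 147.8 ± 14.9 and 141.6 ± 15.2 FPKM. Median log2 fold changes for angiotensin II against vehicle were 0.07 for the AMPA, -0.02 for the NMDA, 0.07 for the kainate, 0.02 for the metabotropic and 0.08 for the GABA-A genes. With the library set as a term they were -0.01, -0.02, 0.06, -0.06 and -0.01.

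Between the library sets the receptor genes differed far more than between treatments. The set was known from an earlier analysis of these data and is defined by the FPKM total, and no test was made. Of the 40 members, 21 had all 6 libraries below all 18, against 16.3% of 27286 genes, and 3 had all 6 above, against 11.2%. With FPKM rescaled by each library's median ratio, a setting chosen after seeing the data, the counts were 19 and 6, against 14.3% and 13.1% of genes. Separation was more common among well expressed genes. Of the 35 members with a mean of at least 1 FPKM, 21 (60.0%) were below and 3 (8.57%) above, against 28.9% and 22.1% of 13649 genes. The median difference in log2(FPKM + 0.1) was -0.36 over the members and -0.07 over all genes tested.

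Receptor groups differed in this respect. All 4 AMPA genes and both GABA-B genes were lower without overlap, as were 4 of 6 metabotropic, 6 of 12 GABA-A, 3 of 7 NMDA and 2 of 5 kainate genes. The 3 that were higher without overlap, Grik5, Grm2 and Grin2d, are glutamate receptor genes, but this count was 6 with rescaled FPKM. The GABA-A gene Gabrd overlapped only narrowly, with 38.2 FPKM as its lowest value in the 6 and 38.7 FPKM as its highest in the 18. The AMPA sum was 79.2 ± 1.64 FPKM (SD, n = 6) in the 6 and 116.9 ± 4.17 (SD, n = 18) in the 18, and the GABA-B sum 122.1 ± 4.20 and 152.6 ± 2.68 FPKM. The kainate sum went the other way, with 77.8 ± 4.66 against 67.2 ± 2.45 FPKM, carried by Grik5, while the NMDA sum was 88.6 ± 5.80 against 87.8 ± 3.65 FPKM. Within the 18 libraries the median coefficient of variation of the members was 8.06%, against 17.1% over all 24.

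**Figure D4:**
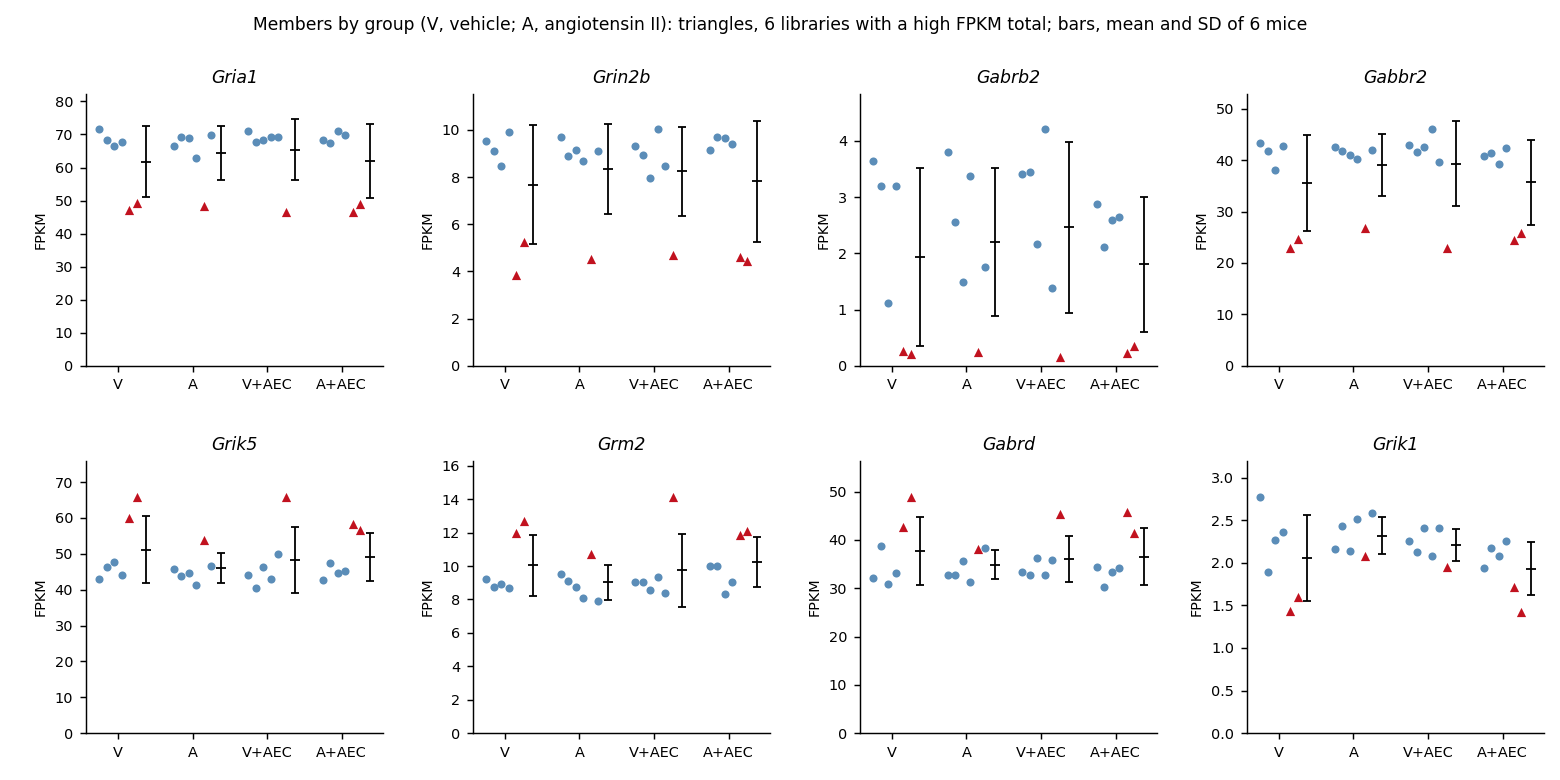
FPKM of 8 genes in each mouse by treatment group (V, vehicle; A, angiotensin II); circles are the 18 libraries, triangles the 6 with a high FPKM total, and bars the mean and SD of 6 mice. In Gria1, Grin2b, Gabrb2 and Gabbr2 the triangles lie below every circle, in Grik5 and Grm2 above, and the groups overlap in all 8 genes.

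Gabrb2, on chromosome 11 (42419757 to 42629028, plus strand), showed the largest gap of the 40 members and was named, like Grin2b, after its values were seen. It had 0.156 to 0.352 FPKM (median 0.238) in the 6 libraries and 1.11 to 4.21 FPKM (median 2.76) in the 18, a ratio of means of 11.2. Its log2 difference of -2.98 was reached or passed by 78 of 13649 genes with a mean of at least 1 FPKM, 27 of them among 12075 protein-coding genes. In reads, the range over all mice was 19 to 568. Within the 18 it also varied most of the members above 1 FPKM (coefficient of variation 33.0%), from 1.11 FPKM in vehicle replicate 3, 1.39 in vehicle + AEC replicate 5, 1.48 in angiotensin II replicate 3 and 1.75 in angiotensin II replicate 6 to 4.21 FPKM in vehicle + AEC replicate 4. These 4 lowest mice come from 3 of the 4 groups. They also have the 4 highest FPKM totals of the 18, 291622.4 to 298300.6 against at most 290170.5 in the rest. This relation was seen in the data and was not tested. Between treatments Gabrb2 had log2 fold changes of 0.45 ± 0.80 (SE) for angiotensin II and -0.39 ± 0.80 for AEC added to it, and -0.05 ± 0.28 and 0.11 ± 0.28 with the library set as a term.

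Grin2b had 3.83 to 5.25 FPKM in the 6 libraries and 7.96 to 10.03 in the 18, a ratio of means of 2.01, whereas Grin2a had 4.00 to 4.83 and 5.04 to 5.97 FPKM. The ratio of Grin2a to Grin2b, often read as a measure of NMDA receptor maturation, was therefore 0.921 to 1.04 (median 1.004) in the 6 and 0.519 to 0.643 (median 0.592) in the 18. Within the 18, its median was 0.607 in vehicle (n = 4), 0.583 in angiotensin II (n = 5), 0.595 in vehicle + AEC (n = 5) and 0.566 in angiotensin II + AEC mice (n = 4), with ranges that overlapped. Other genes lower in the 6 were Grm3 (log2 difference -0.79), Gabra3 (-0.77), Grik2 (-0.76), Gabbr2 (-0.76), Gria4 (-0.75), Grm8 (-0.72), Grin3a (-0.61), Gria2 (-0.56), Gabrb1 (-0.55), Grm7 (-0.53) and Gria1 (-0.52). Grm2 (0.45), Grik5 (0.42), Grm4 (0.42), Gabrd (0.37), Grin2d (0.34) and Grin1 (0.20) were higher, with some overlap in Grm4, Gabrd and Grin1. Gabra2 (-0.03), Gabrg1 (-0.08), Grik4 (0.02), Grid1 (-0.00) and Grin2c (0.03) lay near 0.

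The difference moved with the GC content of the longest coding transcript. Across the 40 members Spearman's rho was 0.51 (across genes, which are not independent replicates), with 0.74 over the 23 glutamate and -0.01 over the 17 GABA receptor genes. Over 13633 genes with a mean of at least 1 FPKM it was 0.47, and -0.56 with transcript length, against -0.17 with length over the 40 members. Gabrb2, with 44.0% GC, lay far below other members of like GC, such as Gabra3 (43.1%) and Gria4 (44.3%). The libraries also differed in their mix of markers: the 5 choroid plexus markers summed to 838.6 to 1124 FPKM in the 6 and 354.9 to 772.2 in the 18, the 5 oligodendrocyte markers to 1176 to 1461 and 988.0 to 1204. Of these genes, 2 of the choroid plexus and 3 of the oligodendrocyte list were higher without overlap and 0 lower. In each of these lists 1 gene had a log2 difference below 0. The 6 striatal markers summed to 197.4 to 250.4 FPKM in the 6 and 153.6 to 196.3 in the 18, but only 2 of these genes were higher without overlap and 2 were lower, with a median log2 difference of -0.05. The 6 neocortical markers also had a higher sum, 88.1 to 100.6 against 78.4 to 91.5 FPKM, with 4 genes lower without overlap and 1 higher. In the thalamus list 3 of 6 genes were lower without overlap and 0 higher, with a median of -0.30. Of the 7 cerebellar markers 5 lay below 0 and 1 was higher without overlap, with a median of -0.34. Of the 5 red blood cell markers 0 lay below 0, with a median of 1.27 and sums that overlapped. Medians of the remaining marker lists were 0.25 (hypothalamus), 0.21 (olfactory bulb), -0.08 (neuron), -0.14 (astrocyte) and -0.51 (pituitary). The shares of all genes stand above. The part of GC content, length and tissue mix in the difference was not tested.

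**Figure D5:**
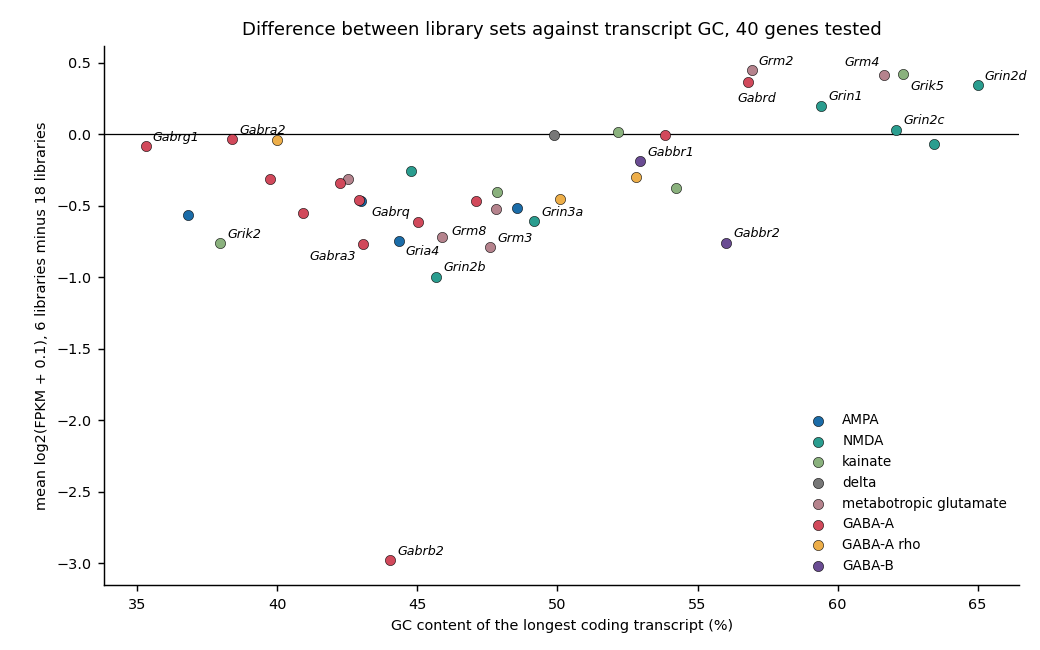
Difference between the mean log2(FPKM + 0.1) of the 6 libraries with a high FPKM total and that of the other 18, against the GC content of the longest coding transcript, for 40 genes coloured by receptor group. Genes above 56% GC lie mostly above 0 with Gabbr2 the main exception, genes below 50% lie under 0, and Gabrb2 stands alone at -2.98.

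Neighbouring genes could differ widely in their difference between library sets. Of the 41 genes, 13 lie in 5 clusters with gaps of at most 1000000 bases, all of GABA-A or rho subunits. On chromosome 11 (42306437 to 42629028), Gabra6 differed by -0.31 and Gabrb2 by -2.98. On chromosome 5 (70751047 to 72149037), Gabrg1 and Gabra2 lay near 0, Gabra4 at -0.34 and Gabrb1 at -0.55. On the X chromosome (72255999 to 72842602), Gabre lay at -0.01, Gabrq at -0.61 and Gabra3 at -0.77, while on chromosome 7 (56716465 to 57510059) Gabra5 and Gabrg3 both lay at -0.46. The rho genes Gabrr2 and Gabrr1 on chromosome 4 (33062999 to 33163588) lay at -0.30 and -0.46, on few reads. Gabra4 and Gabrb1 overlap in the annotation, so reads from their shared stretch are uncertain.

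Partners of the receptors gave no call either. The list of 31 genes holds auxiliary subunits of AMPA, kainate and GABA-B receptors, synaptic scaffolds such as gephyrin, and transporters that load or clear glutamate and GABA. In each of the 5 comparisons, 0 of 31 had an adjusted or unadjusted p under 0.05, against the shares of all genes given above. Values with the library set as a term are not given for these genes. Their median log2 fold change was 0.01 for angiotensin II against vehicle, with 16 positive and 15 negative, and -0.02 for AEC added to angiotensin II, with 13 positive and 18 negative. Between the library sets, 10 were lower and 9 higher without overlap, against 28.9% and 22.1% of genes with a mean of at least 1 FPKM. Over all genes tested these shares were 16.3% and 11.2%. The lowest gene of the list, Slc17a8, had a mean of 0.616 FPKM.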

How the data were processed

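RNA of brain hemispheres of 24 mice, 6 in each of 4 groups named by the labels, was enriched with poly-T beads and sequenced on an Illumina HiSeq instrument. The authors deposited FPKM per gene and mouse, with gene lengths and coordinates (GRCm38), and their processing notes name DESeq 1.10.1. The aligner, counter, use of strand and annotation release are not given in the sources used here.

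FPKM times gene length, divided by a step fitted to each library, gave whole reads for 100% of values (tolerance 0.1 read). The totals of 16536449 to 25308700 fragments set the precision, and floors cover counting error only. Values were tested as log2(FPKM + 0.1), a scale that understates changes of low genes, with limma 3.58.1 (R 4.3.3, trended eBayes). A single fit held all 4 groups and the 27286 genes that 6 or more of the 24 mice had above 0, with Benjamini-Hochberg adjustment and a threshold of 0.05. Python 3.11.15, numpy 2.4.6, pandas 2.3.3, scipy 1.17.1 and matplotlib 3.10.9 were used. The fit was also run on simulated reads. These held no library sets, so that run checks the code and does not measure the power of the fit in these data.

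Library sets were split at an FPKM total of 320000. Transcript lengths and GC content came from GENCODE and promoters from RefSeq (31 of 41 genes matched). Every member is named with its level. Full statistics went to members with an unadjusted limma p under 0.05, of which there were 0, and to the highest member of each receptor group of 2 or more genes. Grik1, Grin2b, Gabrb2 and the ratio of Grin2a to Grin2b were added after their values were seen. The members and lists were chosen with earlier results of these data known. Alternatives were other pseudocounts, filters and groups in the fit, a replicate block, rescaling, limma voom on reads, the library set and leaving out each mouse. Replicate libraries were compared in 60 pairs, and no pair agreed within sampling noise (chi-square per gene 3.19 to 96.1).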

Additional observations from a re-analysis of the deposited data

Results flagged for a closer look

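In each group of 6 mice, the highest and lowest value of each of the 41 genes were compared with the rest (164 tests), and 30 values lay farther from the rest than Dixon's 95% critical value allows for 6 samples. Chance flags about 1 in 20 groups. Most belong to the libraries with a high FPKM total in the groups that hold a single such library, 10 to angiotensin II replicate 5 and 15 to vehicle + AEC replicate 6; the cause was not tested.

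In angiotensin II replicate 5, the low values were Gria1 at 48.5 FPKM (62.9 to 69.9 in the other 5 mice), Gria2 at 11.1, Gria4 at 12.6, Grin2b at 4.54 (8.68 to 9.72), Grik2 at 1.97, Grm3 at 6.26, Gabra3 at 18.8, Gabrb1 at 4.16, Gabrb2 at 0.245 (1.48 to 3.80) and Gabbr2 at 26.8 FPKM (40.1 to 42.5).

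In vehicle + AEC replicate 6, the low values were Gria1 at 46.6 FPKM (67.7 to 71.0 in the other 5 mice), Gria4 at 12.2, Grin2b at 4.70, Grin3a at 2.24, Grm3 at 5.14, Grm8 at 0.784, Gabra3 at 16.9, Gabra5 at 12.9, Gabra6 at 19.2, Gabrq at 0.934, Gabbr1 at 94.6 (109.2 to 115.2) and Gabbr2 at 22.9 FPKM (39.7 to 46.0). High values there were Grid1 at 11.3 FPKM, Grm2 at 14.2 (at most 9.34 in the others) and Gabrd at 45.3 FPKM (32.7 to 36.4).

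The other 5 values were Gabrr2 at 0.298 FPKM in vehicle replicate 6, Gabrg1 at 1.93 FPKM in angiotensin II + AEC replicate 6, Grin2c at 22.3 FPKM in angiotensin II + AEC replicate 2 (26.9 to 29.7 in the others), and Grm6 at 0.00995 FPKM in angiotensin II replicate 3 and 0.00962 FPKM in angiotensin II + AEC replicate 3, each on 1 read where the other 5 mice were at 0.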

How the results depend on the processing

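No member passed an adjusted p under 0.05 in any fit, 22 alternatives per pair of groups and 33 for the interaction. The lowest adjusted p was 0.620 (limma, interaction, without vehicle + AEC replicate 6), a tied value that Gabbr1, Grik1 and Grm2 shared. At an unadjusted p under 0.05, the count of 0 members moved as follows. In angiotensin II against vehicle it was 1 in the 18 libraries alone (Grin3b), and 0 to 1 when single mice were left out (Grik1 without vehicle replicate 1, Grin3b without vehicle replicate 2). In angiotensin II + AEC against angiotensin II it was 1 with only these groups in the fit or with the library set as a term (Grik1), 4 in the 18 libraries alone, and 0 to 1 when single mice were left out (angiotensin II replicate 5, or angiotensin II + AEC replicates 2, 4 or 6). In angiotensin II + AEC against vehicle + AEC it was 1 in the 18 libraries alone (Grm4). In the interaction it was 1, Grik1, with a pseudocount of 0.01, no filter, a filter at a mean of 1 FPKM, median-ratio scaling, voom or the library set as a term, and 0 to 2 when single mice were left out, with Grik1 past it in 9 of 24 such fits.

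The labels do not say whether same-numbered mice were paired. Deviations of same-numbered mice correlated at -0.09 to 0.53, over 0.1 in 3 or 4 of 6 pairs, and 2 or 3 of 6 mice correlated best with their own number. In each comparison the highest value, 0.47 to 0.53, was that of number 5 or 6, with both mice in the set of 6 libraries. All 6 libraries of that set carry number 5 or 6, so number and library set cannot be told apart there. With a replicate block the counts at an unadjusted p were 1 for angiotensin II against vehicle (Grik5), 1 for angiotensin II + AEC against angiotensin II (Grik1) and 2 for the interaction (Gabra3 and Grik1).

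Of 609 receptor group medians recomputed, 50 took the other sign, among them 13 of 35 with the library set as a term and 15 of 35 in the 18 libraries alone. A shift larger than the SD between mice of the group's median level was seen in 14, all of the kainate genes. This SD differs between receptor groups, and other groups had larger shifts on the log2 scale. With the library set as a term, the interaction median went from -0.15 to 0.03 for the AMPA and from -0.15 to 0.02 for the GABA-A genes. Against main values of 0.07, 0.07, -0.09 and -0.14, the kainate median was -0.0198 for angiotensin II against vehicle, -0.0476 for vehicle + AEC against vehicle, 0.00485 for angiotensin II + AEC against vehicle + AEC and -0.0349 for the interaction in the 18 libraries alone. With the library set as a term it was -0.0140 for vehicle + AEC against vehicle and -0.0267 for the interaction. Leaving out single mice gave -0.0303 (without vehicle replicate 5) to 0.136 (without vehicle + AEC replicate 6) for the former and -0.253 (without vehicle + AEC replicate 6) to -0.0218 (without vehicle replicate 5) for the latter. The relation of Gabrd to the cerebellar score in the 18 libraries no longer passed under median-ratio scaling (r = 0.50, permutation p adjusted = 0.0584), and 6 members instead of 3 then had all 6 libraries above the 18. Of 1205 recomputed fold changes of the genes with full statistics, 80 took the other sign and 25 an unadjusted p under 0.05. The cause of these changes was not tested. The intervals were widest for Gabrb2 and Gabrr1, and members under 1 FPKM rest on few reads, 15 to 35 for Grin3b.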
